A study of Mus musculus with 28 samples.

Results

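Resistant lung adenocarcinoma cells in which Fabp7 had been knocked down were compared with sensitive cells by the acetylation of lysine 27 of histone H3 (H3K27ac). The comparison used 6 of the 28 samples of the series, 3 libraries of the knockdown cells (Res_shFabp7) and 3 of the sensitive cells (Sen), chosen by their labels. Per the labels, both are mouse lung adenocarcinoma cells grown in RPMI-1640 with 10% heat-inactivated serum. Sen is a wild-type line called sensitive to PD-1, the immune checkpoint receptor. Res_shFabp7 is the resistant line with the genotype shFabp7, a short hairpin RNA against Fabp7. The 2 groups therefore differ in the line and in the hairpin at once, and the effect of each cannot be told apart in this comparison. A further 6 H3K27ac libraries, 3 of the resistant line with the genotype Control (Res_Ctrl) and 3 of the wild-type resistant line (Res), served to place the knockdown cells between the lines. The labels give neither a drug nor an animal for these cultures, and state no hairpin for Res_Ctrl. Each group has 3 biological replicates per the labels. Nothing states that the cultures were separate, so p-values measure the spread between these libraries. The question asked was how near the knockdown cells lie to sensitive cells.

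H3K27ac is placed by the acetyltransferases Ep300 and Crebbp on nucleosomes at active promoters and enhancers, and it needs acetyl-CoA, which cells draw from glucose, acetate and fatty acids. Fabp7 encodes a small cytosolic protein that carries long-chain fatty acids, found mainly in neural progenitors and glia and in some tumours. Fatty acids also set how easily membranes are oxidised. Ferroptosis, the subject of the series title, is a death by peroxidation of membrane lipids that is held back by glutathione and by monounsaturated fats.

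Each library came with its own list of peaks, and each peak with the number of sequencing reads (tags) that fell into it. The knockdown libraries had 23131, 27107 and 28934 peaks, and the sensitive libraries 15856, 23348 and 21407. The tags in peaks were 5.10, 7.17 and 10.5 M (M, 1000000 tags) against 2.24, 5.91 and 5.30 M. Both ranges overlapped, and the means of 26391 and 20204 peaks did not differ beyond the spread between libraries (two-sided exact permutation test, p = 0.2, where 0.1 is the smallest p that 3 against 3 can give). Sen replicate 1 had the fewest peaks and tags and stood apart from the other sensitive libraries. Some counts and distances are therefore given without it as well, but the values of most single genes are not. Peaks that overlapped were merged into 30523 regions. Of these, 13663 had a peak in all 6 libraries, and their tags were tested with edgeR's quasi-likelihood test. The rest can be described only by the presence of a peak, because a list holds no tag count where it holds no peak.

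The labelled cell type could be checked only loosely. Of 32 epithelial genes 17 had a peak within 1 kb of either end in at least 1 library, among them Krt7, Krt8, Krt18 and Krt19. The other 15 had none, among them Epcam, Cldn3, Cldn4, Cldn7, Esrp1 and Grhl2. Of 37 lung and gut endoderm genes 27 had a peak, and Sftpc, Scgb1a1 and Aqp5 had one in all 6 libraries. Nkx2-1, the defining factor of lung epithelium, was among the 10 without. Peaks elsewhere in a gene were not counted, here or in the lists below. Of 18 immune markers 14 had no peak, including Ptprc (CD45), and of 17 fibroblast and endothelial markers 15 had none. Fabp7 itself (chr10:57784923-57788450, mm10) had 0 peaks within 1 kb in all 12 H3K27ac libraries of the 4 groups, so the mark cannot check the knockdown. Within 25 kb, 2 of the 3 knockdown libraries had a peak of 74 and 61 tags and no sensitive or Res_Ctrl library had any. The 3 Res libraries each had a peak there, of 128, 97 and 64 tags.

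The knockdown cells lay nearer to the sensitive cells than either other resistant group did, but the order between them and Res_Ctrl rested on how peak length was treated. The distance of a library to the sensitive cells was taken as the root mean square difference of its log2 scaled tags per 1000000 (CPM) over the 11679 regions with a peak in all 12 libraries, averaged over the 3 sensitive libraries. It was 0.465, 0.436 and 0.430 for the knockdown libraries, 0.480, 0.520 and 0.488 for Res_Ctrl and 0.585, 0.604 and 0.622 for Res. All 3 knockdown libraries were thus nearer than all 3 Res_Ctrl libraries, and those were nearer than all 3 Res libraries. Without Sen replicate 1 this no longer held: knockdown replicate 1 was then at 0.440, farther than Res_Ctrl replicate 3 at 0.429. The mean distances were 0.444 ± 0.0186, 0.496 ± 0.0211 and 0.604 ± 0.0187 (SD, n = 3). The knockdown was nearer by 0.0521 than Res_Ctrl and by 0.160 than Res, each at the smallest p that this design allows (exact permutation test, two-sided, p = 0.1). Against Res_Ctrl the p was 0.2 in the same exact test without Sen replicate 1 and without Res_Ctrl replicate 2. All 3 distances share the sensitive libraries.

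Against the spread inside the sensitive group the gap was modest. Each sensitive library lay 0.440, 0.323 and 0.327 from the other 2, in replicate order, so Sen replicate 1 lay about as far from its own group as the knockdown libraries did. Scaled to the length called in each region, the order of the knockdown and Res_Ctrl vanished. The knockdown was then at 0.217 and Res_Ctrl at 0.216, a difference of 0.000927 (exact permutation test, p = 0.9), while Res stayed farther at 0.258. With the median of each 5 Mb window removed the knockdown stood at 0.396, Res_Ctrl at 0.424 (exact permutation test, p = 0.2) and Res at 0.535. The nearest relatives of the knockdown libraries were not the sensitive ones. The median distance over 9 pairs of libraries was 0.321 to Res_Ctrl (0.278 to 0.408), 0.428 to Sen (0.357 to 0.556) and 0.573 to Res. In a principal component analysis of the 12 libraries the first component, with 43.6% of the variance, set Res apart from the other 3 groups, and the second, with 23.1%, set Sen apart from the knockdown and Res_Ctrl.

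**Figure D1:**
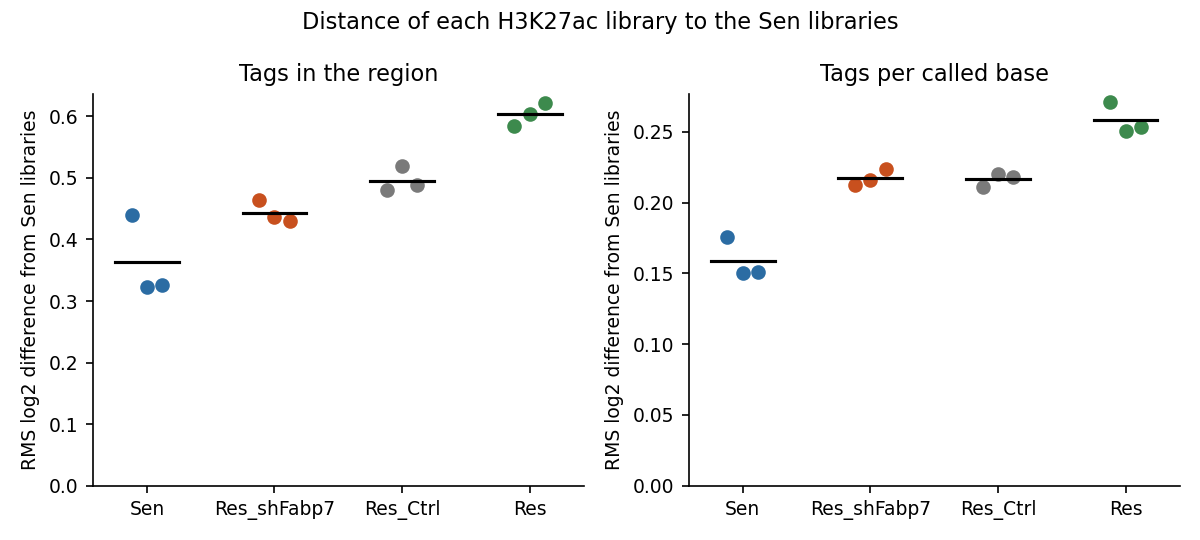
Distance of each H3K27ac library to the sensitive libraries (root mean square difference of log2 CPM, vertical axis) by group, from tags in the region on the left and tags per called base on the right, with 1 point per library and a line at the group mean; a sensitive library is measured against the other 2. On the left the knockdown libraries sit between 0.430 and 0.465, below Res_Ctrl at 0.480 to 0.520 and Res at 0.585 to 0.622, and on the right the knockdown and Res_Ctrl means lie at 0.217 and 0.216.

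Counts of differing regions ran the same way by tags, and the other way for the knockdown and Res_Ctrl per called base. In 1 fit over the 12 libraries with a mean per group, 1991 of the 11679 regions (17%) differed between the knockdown and sensitive cells at an adjusted p below 0.05, the limit for calling a region or gene throughout. For Res_Ctrl against Sen the count was 2618 (22.4%) and for Res against Sen 4400 (37.7%), and these 3 comparisons share the sensitive libraries. Per called base the counts were 1837, 1472 and 3240. The knockdown differed from Res_Ctrl at 171 regions (1.46%), at 604 with the replicate number as a block, at 453 per called base and at 26 to 387 with 1 library left out, and from Res at 4359 (37.3%). Differences of more than 2-fold were few: 204 regions (1.75%) separated the knockdown from Sen, 311 (2.66%) Res_Ctrl from Sen and 843 (7.22%) Res from Sen. Of these, 201, 310 and 842 were also called. Only 28 regions differed by more than 2-fold between the knockdown and Res_Ctrl, and 18 of them were called.

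In the comparison of the 6 libraries alone, 989 of 13663 regions (7.24%) were higher in the knockdown cells and 1203 (8.8%) were lower, 16% in all. With the replicate number as a block, 1537 were higher and 1678 lower. Leaving out 1 library moved these counts widely, to 340 and 589 without knockdown replicate 2 and to 1364 and 1829 without Sen replicate 1. The values of the 2 groups did not overlap at 35.1% of the tested regions. Of the 9272 protein-coding genes with a tested region within 1 kb of either end, 542 (5.85%) were higher and 488 (5.26%) lower, 11.1% in all, and the groups did not overlap at 30% of genes. Acetylation in fewer cells and less of it per cell cannot be told apart in such bulk chromatin. The tags were also not scaled to the amount of DNA at a region. The differences were small. The median change was 1.48-fold in both directions, and only 32 higher and 44 lower genes passed 2-fold. Per called base, 282 of the 542 and 268 of the 488 also passed the test in the same direction, and 72 and 9 took the other sign. Genes that passed both ways with groups that did not overlap numbered 550 (5.93%).

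Regions away from gene ends differed more often. Of 5692 tested regions farther than 1 kb from any gene end 22.4% were called, against 11.5% of 7971 within that reach. Changes of more than 2-fold took up 5.22% of the first and 0.966% of the second. Both shares come from the same fit and are descriptions, since neighbouring regions are not independent.

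The 10 largest decreases were taken among genes that passed by tags and per called base with groups that did not overlap. They were at Bicc1, Zfp532, Pamr1, Tnxb, Nrp1, Slc16a3, Prickle1, Apob, Sptssb and Rasgef1c, with log2 changes from -2.57 to -1.52. Bicc1, which encodes an RNA-binding protein, had 203, 182 and 208 CPM in the sensitive libraries and 23.1, 35.7 and 39.6 in the knockdown (region chr10:71151689-71160653). Every sensitive library was several times above every knockdown library, a 5.94-fold difference (log2 change -2.57, SE 0.18, adjusted p = 0.000243). Zfp532, a zinc finger gene, had 163, 156 and 152 CPM against 27.1, 23.3 and 29.6, 5.86-fold lower in the knockdown. Pamr1, which encodes a secreted protease-like protein, had 64.8, 61.0 and 68.3 against 13.7, 8.83 and 11.4 (chr2:102550181-102553493), a log2 change of -2.53. In these 3 genes the replicates of a group lay close together and the groups far apart. Tnxb, the matrix protein tenascin X, was 3.93-fold lower (log2 change -1.97, adjusted p = 0.000592).

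Nrp1 and Slc16a3 were the largest decreases among genes whose region is known to cover the annotated start. Slc16a3 encodes MCT4, the exporter that carries lactate out of glycolytic cells. It had 93.3, 94.7 and 87.0 CPM in the sensitive libraries and 28.0, 25.6 and 25.9 in the knockdown (chr11:120948248-120952372), 3.46-fold lower (log2 change -1.79, SE 0.11, adjusted p = 0.000124). Nrp1, a co-receptor for semaphorins and vascular growth factors, had 40.2, 54.2 and 59.1 CPM against 14.1, 10.8 and 14.4 (chr8:128356409-128360256), 3.93-fold lower (SE 0.20 on the log2 scale, adjusted p = 0.000875). The groups overlapped at neither gene, which the choice of genes required. The other genes of the set were Prickle1 (planar cell polarity), Apob (the lipid-carrying apolipoprotein B), Sptssb (a small subunit of the enzyme that begins sphingolipid synthesis, with 16.7, 25.6 and 23.8 CPM in the knockdown against 82.9, 70.4 and 58.2) and Rasgef1c (an activator of Ras-family proteins). For Apob, with 9.26, 10.1 and 18.7 against 22.5, 45.2 and 56.4 CPM, the adjusted p of 0.0181 rested on few tags and was lost when any 1 of 4 libraries was left out.

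The promoter windows of both genes are printed for that reason. They run from 250 bases before to 50 after the start, 5′ to 3′ on the gene's strand, from RefSeq on GRCm38.p6, at chr11:120948817-120949116, plus strand, and chr8:128358823-128359122, plus strand. Capitals mark the GC box letters GGGCGG, the only match in either window among 7 motifs searched on both strands. The others were the AP-1 letters TGANTCA, the CRE TGACGTCA, the E-box CACGTG, the box of letters CCAAT, the ETS letters CCGGAAG and the forkhead letters TGTTTAC. Of 21263 such windows 46.2% hold a GC box.
Slc16a3: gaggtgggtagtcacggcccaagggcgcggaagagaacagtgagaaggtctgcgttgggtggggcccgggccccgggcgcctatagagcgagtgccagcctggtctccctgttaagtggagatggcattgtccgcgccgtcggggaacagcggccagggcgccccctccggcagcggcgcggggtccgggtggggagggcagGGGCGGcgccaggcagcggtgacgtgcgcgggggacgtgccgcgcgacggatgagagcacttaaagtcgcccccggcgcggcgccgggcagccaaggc
Nrp1: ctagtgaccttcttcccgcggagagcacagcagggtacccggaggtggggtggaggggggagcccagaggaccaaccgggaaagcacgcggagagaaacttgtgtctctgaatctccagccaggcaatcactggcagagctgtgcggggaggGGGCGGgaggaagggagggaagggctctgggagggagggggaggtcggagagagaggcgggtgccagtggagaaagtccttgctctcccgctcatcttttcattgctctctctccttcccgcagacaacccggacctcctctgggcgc

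The other groups placed these losses differently. Over the regions shared by all 12 libraries, Slc16a3 had 101, 103 and 94.6 CPM in Sen, 29.5, 27.1 and 27.5 in the knockdown, 46.7, 42.7 and 41.3 in Res_Ctrl and 77.0, 73.9 and 71.1 in Res. The knockdown was the lowest group, and was also below Res_Ctrl (log2 change -0.64, adjusted p = 0.016). Nrp1 had 43.3, 58.9 and 64.3 CPM in Sen, 14.9, 11.5 and 15.3 in the knockdown, 48.6, 18.8 and 27.6 in Res_Ctrl and 161, 149 and 124 in Res. Res was highest and the knockdown lowest, but the knockdown's difference from Res_Ctrl just missed the test (adjusted p = 0.053), and Res_Ctrl replicate 1 overlapped with Sen. Pamr1 and Apob had no peak in any Res_Ctrl or Res library, and Bicc1 had one of 41 tags in a single Res_Ctrl library and none in Res.

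The largest increases included the transcription factor genes Zfhx4, Meis2 and Prdm16. The 10 largest, chosen in the same way, were at Zfhx4, Socs2, Gorab, Atp2c2, Meis2, Prdm16, Zcchc14, Krt23, Shcbp1 and Otud4, with log2 changes from 1.95 to 1.17. Zfhx4, a large homeobox and zinc finger factor, had 182, 161 and 149 CPM in the knockdown and 52.7, 37.2 and 39.8 in the sensitive libraries (chr3:5217449-5224917), 3.86-fold higher (log2 change 1.95, SE 0.15, adjusted p = 0.000243). Socs2, a feedback inhibitor of cytokine and growth hormone receptors, had 127, 136 and 126 against 33.2, 33.9 and 35.3 (chr10:95409774-95418114), 3.79-fold higher (SE 0.10, adjusted p = 7.2e-05). The groups of both genes were tight and far apart. Atp2c2, a calcium pump of the secretory pathway, had 98.2, 123 and 115 CPM against 26.3, 41.1 and 40.2, a 3.06-fold difference. It lies on chromosome 8, as do Zcchc14, Shcbp1 and Otud4 of these 10, where a rise of the whole chromosome is described further on.

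Meis2 and Prdm16 were the largest increases whose region is known to cover the start. Meis2, a TALE homeobox factor, had 112, 105 and 101 CPM in the knockdown and 16.4, 53.0 and 33.9 in Sen (chr2:116061322-116067961), 2.95-fold higher (log2 change 1.56, SE 0.30, adjusted p = 0.0122). The sensitive libraries varied widely, Sen replicate 1 being lowest, and the highest adjusted p with 1 library left out was 0.0508. Prdm16, a transcription factor known from brown fat and stem cells, had 142, 149 and 156 CPM against 60.4, 59.5 and 62.3 (chr4:154630410-154638755), 2.45-fold higher (SE 0.09, adjusted p = 0.000243), with little spread in either group. Krt23, an epithelial keratin, had 169, 188 and 178 CPM against 37.6, 79.5 and 103, and Gorab, a Golgi protein gene, 78.5, 92.7 and 88.1 against 23.3, 43.5 and 14.6. Both Krt23 and Gorab lost the call when 1 of several libraries was left out, as Zcchc14 did.

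The windows of both start sites are shown for the same reason as above, at chr2:116064570-116064869, minus strand, and chr4:154636824-154637123, minus strand (RefSeq, GRCm38.p6). Capitals mark the GC box and the letters CCAAT, or ATTGG where the match is on the other strand. Of the 21263 windows 38.2% hold a CCAAT. The AP-1, CRE, E-box, ETS and forkhead letters, held by 6.99%, 2.23%, 7.84%, 11.6% and 3.01% of windows, were not in these.
Meis2: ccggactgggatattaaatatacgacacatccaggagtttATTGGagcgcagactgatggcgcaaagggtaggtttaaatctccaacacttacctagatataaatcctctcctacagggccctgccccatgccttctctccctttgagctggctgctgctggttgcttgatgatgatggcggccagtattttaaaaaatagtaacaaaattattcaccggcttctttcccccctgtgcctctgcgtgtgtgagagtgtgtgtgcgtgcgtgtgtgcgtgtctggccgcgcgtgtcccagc
Prdm16: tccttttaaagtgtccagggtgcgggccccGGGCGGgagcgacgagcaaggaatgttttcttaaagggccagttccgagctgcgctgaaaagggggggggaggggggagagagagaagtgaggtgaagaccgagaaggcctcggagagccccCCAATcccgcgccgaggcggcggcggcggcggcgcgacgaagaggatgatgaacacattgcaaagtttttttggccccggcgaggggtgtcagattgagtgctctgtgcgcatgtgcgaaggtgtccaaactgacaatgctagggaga

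Res_Ctrl and Res had high values at both homeobox genes. Over the 12-library regions Zfhx4 stood at 103, 113 and 153 CPM in Res_Ctrl and 162, 163 and 180 in Res, and Meis2 at 127, 111 and 122 and at 126, 118 and 136. Prdm16 and Krt23 had a peak in all 3 Res_Ctrl libraries and in no Res library. Of the 20 largest changes, 15 kept their call whichever single library was left out, as did 32 of all 76 genes named for a tested change. In 17 of the 20 the called length was also longer in the higher group without overlap, as at Zfhx4 with 6.95 to 7.33 kb in the knockdown and 1.90 to 2.26 kb in Sen.

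**Figure D2:**
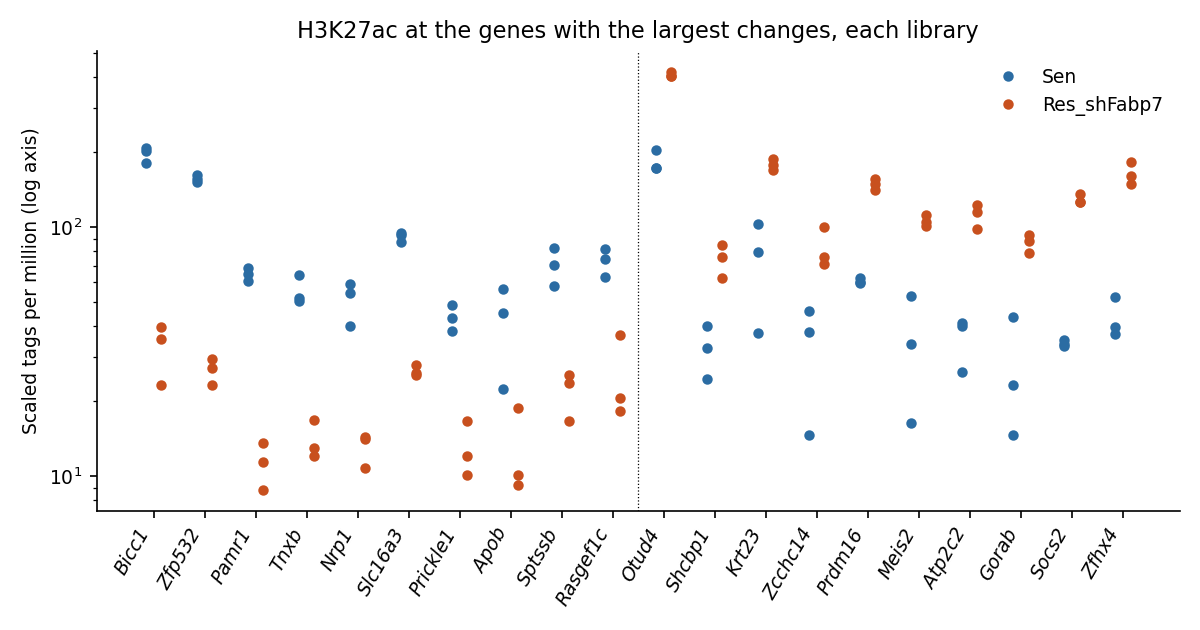
H3K27ac level (CPM, log axis) of the 10 largest decreases, left of the dotted line, and the 10 largest increases, right of it, with 1 point per sensitive (blue) and knockdown (orange) library. The groups do not overlap at any of the 20 genes, which the choice of genes required, and the sensitive libraries spread widely at Meis2, Gorab and Zcchc14.

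Lysine 9 of the same histone, whose acetylation (H3K9ac) marks mostly promoters, was measured in other libraries of the same groups. Of 10335 genes tested there 26.6% were called. Of the 542 genes higher in H3K27ac 524 were tested in H3K9ac and 444 (84.7%) were called higher there, where 13.2% of the genes tested in both marks were called higher. Of the 488 lower genes 463 were tested and 422 (91.1%) were called lower, where 14.03% of the genes were. A single gene in each direction was called the other way. Among the 20 largest 16 were tested and 15 moved the same way, such as Slc16a3 at -1.69, Nrp1 at -1.39, Zfhx4 at 1.86 and Socs2 at 1.74 (log2 change). Gorab was called the other way (-0.17, adjusted p = 0.0477), and its H3K27ac within 1 kb of the start was at -0.15 as well, so the rise was at another region of the gene.

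Whole chromosomes moved. On chromosome 8 the median log2 change of the 760 tested regions was 0.44, 1.36-fold higher in the knockdown, with 330 regions called higher and 9 lower. On chromosome 15 it was -0.47, with 4 of 728 regions called higher and 396 lower. The shift ran along the length of both: of the 5 Mb windows with 10 or more regions, 21 of 21 on chromosome 8 had a median above 0 (0.29 to 0.67) and 17 of 17 on chromosome 15 a median below 0. These 2 chromosomes held 33.4% of all higher and 32.9% of all lower regions. Without them 12175 regions remained, of which 655 were higher and 798 lower (11.9%). Chromosome 6 had a median of -0.19 with 24 of 24 windows below 0, and chromosome 1 one of -0.16 with 26 of 30. The tags were not set against the input libraries or the amount of DNA, and the cause of these shifts was not tested.

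The shift was also seen in each library's share of the tags in regions with a peak in all 12 libraries. These are largely the tags behind the medians above, so the shares are not a separate measure. Chromosome 8 held 7.59%, 7.40% and 7.33% of these tags in the knockdown libraries and 5.40%, 5.60% and 5.58% in the sensitive ones. Chromosome 15 held 5.35%, 5.40% and 5.41% against 7.89%, 7.34% and 7.46%. Neither pair of groups overlapped (exact permutation test, p = 0.1 each, the smallest possible). Both other resistant groups stood on the same side of Sen: chromosome 8 held 8.45%, 8.57% and 8.30% in Res_Ctrl and 6.87%, 6.94% and 6.85% in Res, and chromosome 15 held 5.25%, 5.26% and 5.29% and 6.21%, 6.39% and 6.45%. On both chromosomes the knockdown lay between Res_Ctrl and Sen, and Res lay between the knockdown and Sen. Per called base the medians were 0.23 and -0.22, and in H3K9ac 0.39 and -0.36. The first 5 Mb of chromosome 5 stood out as well, with a median of -0.78 and 19 of 23 regions called lower.

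**Figure D3:**
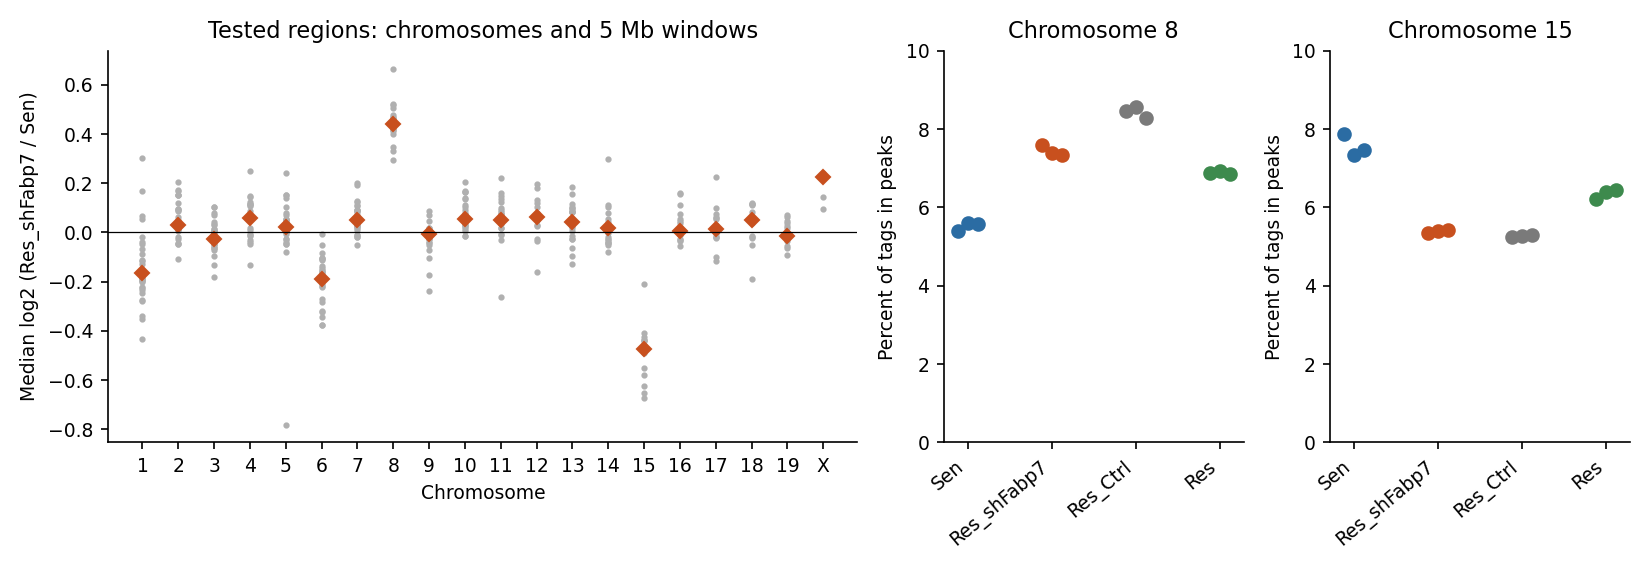
Left, the median log2 change of H3K27ac (knockdown over sensitive) of each chromosome as a diamond. Grey points are the medians of its 5 Mb windows with 10 or more regions. Right, the percent on chromosomes 8 and 15 of the tags in regions with a peak in all 12 libraries, with 1 point per library of the 4 groups. Windows of chromosome 8 all lie above 0, at 0.29 to 0.67, those of chromosome 15 all lie below, and the lowest single window, at -0.78, is the first of chromosome 5.

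The gene lists that follow are pathways and markers around lipid handling, cell death, immunity and lineage. They were chosen with earlier results of these data known, so their called shares are descriptions only. Over their members, 400 genes had a tested region, of which 40 (10%) were higher and 33 (8.25%) lower, against 5.85% and 5.26% of all genes. On the shifted chromosomes 15 of 26 members on chromosome 8 were higher and 9 of 16 on chromosome 15 were lower. On all other chromosomes 25 of 358 were higher and 24 lower, or 6.98% and 6.70%, while the shares over all genes include chromosomes 8 and 15. The chromosome is therefore given beside each member named for a tested change on these chromosomes, but not beside members at gained regions. Each list stands by its count and its median log2 change, beside a median of 0.0079 over all genes.

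Of the fatty acid carriers, 10 of 16, with Fabp7 among them, had no peak within 1 kb of either end, and 0 of the 3 tested passed. The genes that take up and activate fatty acids leaned upwards, with 4 of 10 higher, 0 lower and a median of 0.28. Acsl1, an acyl-CoA synthetase on chromosome 8, had 49.5, 61.5 and 60.9 CPM in the knockdown and 37.1, 21.8 and 26.7 in Sen (log2 change 1.04, SE 0.20, adjusted p = 0.00936). Ppard, a nuclear receptor for fatty acids, had 61.6, 68.9 and 76.3 against 39.3, 40.9 and 28.3 (0.94, SE 0.16, adjusted p = 0.00682). Acsl3, which makes monounsaturated acyl-CoA and protects from ferroptosis, had 103, 89.4 and 97.8 against 72.5, 60.8 and 61.4 (0.58, adjusted p = 0.0106, a region shared with Utp14b). Rxra, the partner receptor of the PPARs, was the fourth (0.46, adjusted p = 0.0232). At each of these 3 named first the groups did not overlap, yet per called base Acsl1 was at -0.06, Ppard at -0.26 and Acsl3 at -0.18, and the list's median was -0.05. The rise at these genes was in tags and not in tags per called base.

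In fatty acid synthesis 0 of 12 genes rose and 2 fell, Fads2 and Me1. Fads2, the desaturase that begins the making of polyunsaturated fats, had 78.0, 99.0 and 92.9 CPM against 114, 126 and 138 (-0.49, adjusted p = 0.0271), although its H3K9ac was at 0.20 and its sign turned with the region taken for it (0.06 in the 12-library fit). Me1, which supplies NADPH, was at -0.36 (adjusted p = 0.0485). Of the oxidation genes 0 of 12 passed either way. Among genes of lipid droplets 3 of 16 rose and 1 fell. Plin2, which coats droplets, had 172, 211 and 193 CPM against 114, 141 and 142 (0.53, adjusted p = 0.0171), and Fitm2, needed for droplets to form, was at 0.64 (adjusted p = 0.0198; -0.03 per called base). Pnpla2, the lipase that empties droplets, fell to 44.9, 39.1 and 42.9 CPM from 57.4, 54.4 and 58.4 in Sen (-0.42, adjusted p = 0.0411). Pnpla2 was also below Res_Ctrl, where it had 82.3, 79.3 and 81.4 CPM over the 12-library regions against 47.3, 41.4 and 45.5 in the knockdown (-0.86, adjusted p = 0.00354).

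Cholesterol synthesis split, with 2 of 19 genes higher and 2 lower. Msmo1, a sterol oxidase gene on chromosome 8, had 189, 182 and 191 CPM against 58.3, 105 and 120 (0.96, adjusted p = 0.0203). Hmgcs1, which makes the precursor of mevalonate, was at 0.75 by tags (adjusted p = 0.0202) and at -0.36 per called base. Cyp51, the lanosterol demethylase, fell to 58.3, 56.4 and 60.9 from 114, 93.4 and 98.0 (-0.79, adjusted p = 0.0029). Cyp51 lies in the first 5 Mb of chromosome 5, the window with a median of -0.78.

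Of the genes that hold back ferroptosis 3 of 21 rose and 2 fell, with a median of 0.05. Hspb1, a small heat shock protein, had 35.6, 34.6 and 33.9 CPM against 16.4, 18.3 and 18.2, 1.95-fold higher (0.97, SE 0.14, adjusted p = 0.00376; 0.10 per called base). Gsr, glutathione reductase, on chromosome 8, had 305, 330 and 321 against 155, 200 and 220 (0.73, adjusted p = 0.00529), and with the chromosome's median removed it was at 0.27 (adjusted p = 0.22). Fth1, the ferritin heavy chain, fell by 0.35 (adjusted p = 0.0423). Gpx4, the peroxidase at the centre of this defence, had 127, 131 and 140 CPM against 161, 148 and 149 and did not pass (-0.20, adjusted p = 0.171). Slc7a11, the cystine carrier, had no peak within 1 kb of either end, and peaks elsewhere in the gene were not counted. Among genes that drive ferroptosis 0 of 15 rose and 1 fell: Lpcat3, the acyltransferase that loads membrane phospholipids with polyunsaturated chains, had 49.5, 47.6 and 49.8 CPM in the knockdown and 98.9, 78.4 and 78.7 in Sen, 1.73-fold lower (-0.79, SE 0.12, adjusted p = 0.00452). It was at -0.43 with its 5 Mb window's median removed (adjusted p = 0.0682). Over the 12-library regions Lpcat3 ranged from 37.0 to 40.3 CPM in Res_Ctrl and from 49.7 to 63.6 in Res, so all resistant groups were below Sen.

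In the circadian clock 0 of 15 genes rose and 2 fell. Per2, a repressor of the clock, had 95.1, 111 and 92.1 CPM against 185, 176 and 171, 1.78-fold lower (-0.83, SE 0.10, adjusted p = 0.00179). Csnk1d, the kinase that marks PER proteins, was at -0.47 (adjusted p = 0.0212), and at -0.23 with its 5 Mb window's median removed (adjusted p = 0.27). In the stress responses 2 of 20 rose, Herpud1 (0.57, chromosome 8) and the unfolded protein factor Xbp1 (0.44, adjusted p = 0.0353), and Atf4 fell (-0.42, adjusted p = 0.0103). Atf4 lies on chromosome 15 and stood at 0.04 once that chromosome's median was removed. Of 22 genes of hypoxia and glycolysis 2 rose, Egln1, an oxygen sensor (0.63), and Ankrd37 (0.61), both on chromosome 8, and Slc16a3 fell. With the chromosome's median removed Egln1 was at 0.18 and Ankrd37 at 0.15. The other glycolytic genes, among them Gapdh (-0.07), Pkm (0.01), Ldha (0.22) and Eno1 (-0.03), did not pass.

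**Figure D4:**
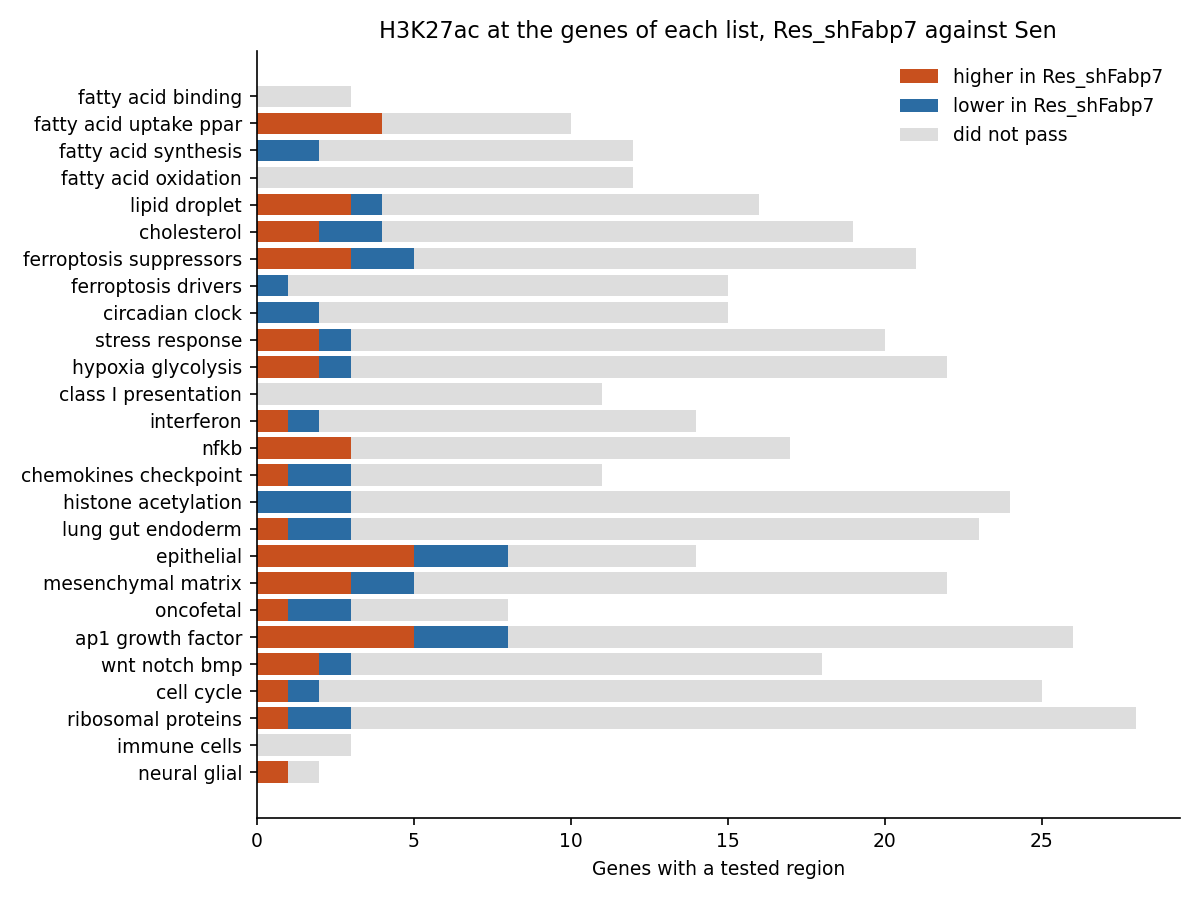
Number of genes with a tested region in each gene list (horizontal axis), split into those called higher in the knockdown cells (orange), called lower (blue) and not called (grey). Called genes are a minority in most lists, and the epithelial list has the most called for its size, 5 higher and 3 lower of 14.

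In antigen presentation by class I 0 of 11 tested genes passed, and B2m, its light chain, had 39.8, 37.5 and 29.6 CPM against 39.3, 35.7 and 31.0 (0.01, SE 0.17). H2-K1, a class I heavy chain of the list, had a peak with 91, 58 and 110 tags in the knockdown libraries and none in the sensitive ones, but it did not count as gained with an equal number of peaks per library or with the authors' score of at least 100. Near-identical class I genes may share its reads. The checkpoint ligand Cd274 (PD-L1) had 25.0, 25.2 and 22.1 against 31.5, 20.7 and 23.4 (-0.04, SE 0.19), with overlapping groups. Of 14 interferon genes 1 rose, Irf2 on chromosome 8 (0.30, and -0.15 with the chromosome's median removed), and 1 fell, Isg15, an interferon-induced modifier, with 120, 128 and 112 CPM against 193, 195 and 175 (-0.64, SE 0.09, adjusted p = 0.00339). The region of Isg15 is shared with its neighbour Agrn, and the tags cannot be divided between them. Of the NF-kB genes 3 of 17 rose and 0 fell. Ptgs2, which makes prostaglandins, had 109, 106 and 101 CPM against 29.8, 59.8 and 71.0 (0.94, adjusted p = 0.0352), the brake Tnfaip3 was at 0.47 (adjusted p = 0.0337) and the subunit Rel at 0.37 (adjusted p = 0.0338; -0.75 in the 12-library fit, which takes another region for it). The list's median was 0.00.

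Among chemokines and other immune ligands 1 of 11 rose and 2 fell. Nt5e (CD73), which makes adenosine outside cells, had 44.2, 46.2 and 47.1 CPM against 31.5, 29.0 and 28.5 (0.63, adjusted p = 0.0123). Cxcl5, a neutrophil attractant, had 80.8, 65.4 and 72.2 against 93.7, 115 and 114 (-0.57, adjusted p = 0.0161), and in H3K9ac it was at -1.04. Csf1, the macrophage growth factor, was at -0.36 (adjusted p = 0.0421). The groups did not overlap at any of these 3. In the enzymes of histone acetylation 0 of 24 rose and 3 fell: Sirt7 (-0.60, a region shared with Pcyt2), and on chromosome 15 Hdac10 (-0.49) and Ep300 (-0.31). With the median of chromosome 15 removed, Hdac10 was at -0.03 and Ep300 at 0.14, and Sirt7 was at -0.36 with its 5 Mb window's median removed (adjusted p = 0.154).

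Of the lineage factors of lung and gut endoderm 1 of 23 was higher and 2 were lower. Foxa2 had 265, 266 and 254 CPM against 294, 272 and 271 (-0.09, SE 0.07) and Gata6 275, 262 and 258 against 277, 256 and 264 (0.00, SE 0.07). Klf5 rose to 292, 262 and 294 from 189, 207 and 205 (0.49, adjusted p = 0.00554). It was at -0.06 per called base and at 0.18 with its 5 Mb window's median removed (adjusted p = 0.248). Cdx2, the intestinal homeobox factor, fell to 56.3, 55.5 and 64.5 from 96.7, 80.9 and 85.0 (-0.57, adjusted p = 0.0137).

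Of 14 epithelial genes 5 rose and 3 fell. The 3 that fell were the neighbouring keratins of chromosome 15: Krt18 had 274, 284 and 272 CPM against 451, 455 and 452 (-0.71, SE 0.06, adjusted p = 0.000529), Krt8 was at -0.50 (adjusted p = 0.00475) and Krt7 at -0.50 (adjusted p = 0.0186). Krt18 kept a change of -0.25 beyond the median of its chromosome (adjusted p = 0.038). Krt19 rose, with 162, 166 and 154 against 73.0, 117 and 120 (0.61, adjusted p = 0.04), and so did Marveld3 on chromosome 8 (0.61). With chromosome medians removed Krt19 was at 0.55 (adjusted p = 0.0864) and Marveld3 at 0.15 (adjusted p = 0.635). Of the 14 tested genes of the list 6 lie on chromosomes 8 or 15. Of 22 mesenchymal and matrix genes 3 rose and 2 fell. The integrins Itgb4 (0.53, adjusted p = 0.0225) and Itga2 (0.46, adjusted p = 0.0486) rose, and Snai1, a repressor of epithelial genes, had 53.0, 60.4 and 58.7 against 85.1, 81.7 and 78.9 (-0.51, adjusted p = 0.0134). The medians of the epithelial and mesenchymal lists were 0.09 and 0.11.

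Among growth and fetal genes Mycn and Myc fell by tags. Mycn had 15.5, 14.2 and 12.7 CPM against 22.9, 34.9 and 33.0, 2.19-fold lower (-1.13, SE 0.20, adjusted p = 0.00684). Myc, on chromosome 15, had 201, 220 and 232 against 273, 280 and 294 (-0.38, adjusted p = 0.0161), and was at 0.08 with the chromosome's median removed. Hmga2 rose (0.37, adjusted p = 0.0342), so 1 of 8 fetal genes was higher and 2 lower. Of 26 AP-1 and growth factor genes 5 rose and 3 fell. Egfr, the receptor of epidermal growth factor, had 44.2, 42.9 and 41.0 against 60.4, 63.0 and 53.5 (-0.47, adjusted p = 0.0308; 0.0047 per called base). Spry4, an inhibitor of growth factor signals, was at 0.61 (adjusted p = 0.00391; -0.0078 per called base). Jund, a subunit of AP-1 on chromosome 8, was at 0.50 (adjusted p = 0.00318), and at 0.05 with the chromosome's median removed (adjusted p = 0.777).

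In Wnt, Notch and BMP signalling 2 of 18 rose, Id3 (0.48) and Tcf7l2 (0.28), and the receptor Fzd1 fell (-0.78, adjusted p = 0.0045). In the cell cycle 1 of 25 rose, the inhibitor Cdkn2c (0.27), and 1 fell, the kinase Cdk6, with 239, 213 and 212 CPM against 338, 315 and 337 (-0.58, adjusted p = 0.00275). Fzd1 and Cdk6 lie with Cyp51 in the low window of chromosome 5, and Cdk6 was at 0.19 with the window's median removed. Ribosomal protein genes, taken as a housekeeping group, had 1 of 28 higher (Rpl7, 0.49) and 2 lower (Rpl37, -0.58, on chromosome 15, and Rps6, -0.51), with a median of -0.01. Among marker lists of other cells, Nes of the neural list rose (0.63, a region shared with Bcan), 1 of 2 tested there, and 0 of 3 immune markers passed.

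Peaks present in 1 group alone ran nearly all one way. A peak stood in all 3 knockdown libraries and in no sensitive library at 1826 of 30523 regions (5.98%), which cover an end of 391 of 11241 genes (3.48%). The reverse was found at 43 regions (0.141%) and 8 genes (0.0712%). These counts moved with the number of peaks in the lists. With the same number of the highest-scoring peaks taken from every library, 669 regions were gained and 443 lost. Without Sen replicate 1, which has the fewest peaks, 366 were lost, and without knockdown replicate 1 as many as 4080 were gained. Gained peaks were also weak, with medians of 72, 100 and 147 tags in the 3 knockdown libraries against 239, 306 and 439 in regions shared by all 6. Of the gained regions 24.2% had a peak in all 3 Res_Ctrl libraries and 30.8% in none of them, while 22.5% had one in all 3 Res libraries and 53.9% in none.

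**Figure D5:**
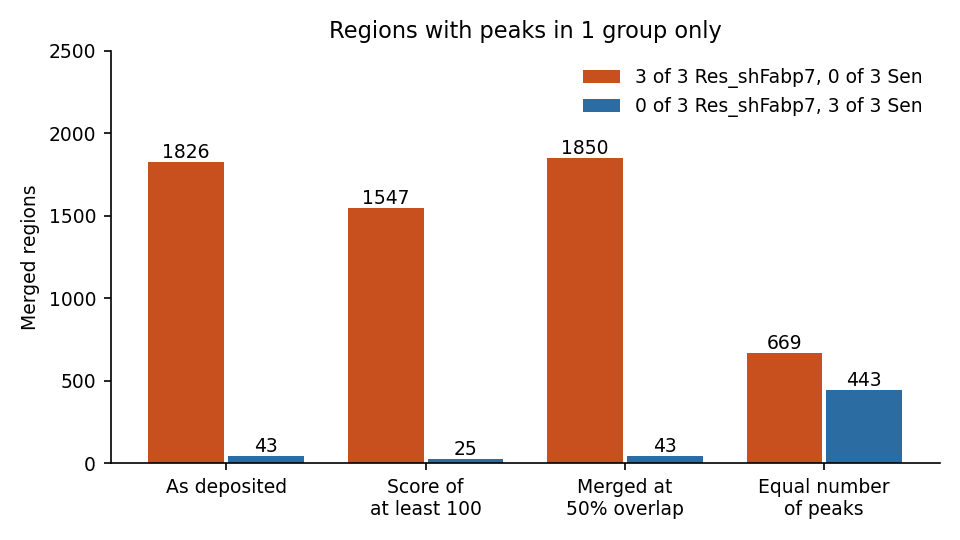
Number of merged H3K27ac regions (vertical axis) with a peak in all 3 knockdown and no sensitive library (orange) or the reverse (blue), with the lists as deposited, with peaks of a score of at least 100, with peaks merged at 50% overlap and with an equal number of peaks per library. Gained regions outnumber lost ones 1826 to 43 as deposited and 669 to 443 with equal numbers of peaks.

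The strongest gained regions at genes were those of Klhl1, with 584, 744 and 1089 tags in the knockdown libraries, Mtap, Gab1, Ccdc170, Cachd1, Nr2f1, Il1b and Acan. Mtap, the enzyme that recycles methionine, had 347, 426 and 737 tags. Il1b, an inflammatory cytokine, had 163, 293 and 443, and Nr2f1, an orphan nuclear receptor of development, 239, 306 and 441. Gab1, an adaptor of growth factor receptors, had 280, 308 and 438. Klhl1, Mtap and Gab1 had about as many tags as the median region shared by all 6, or more, while Il1b exceeded it only in knockdown replicate 3. List members at a gained region included Jak1, the kinase of interferon receptors, with 154, 177 and 257 tags. Sox2 had 145, 116 and 309, Hmox1 104, 111 and 143, and the interferon genes Stat2, Irf9 and Bst2 were also gained. Of 26 interferon genes with a peak 4 were gained, and of 25 Wnt, Notch and BMP genes 4. Ferroptosis suppressors had 2 of 23, histone acetylation 2 of 31 and endoderm factors 2 of 27. The cholesterol, clock, class I, epithelial and neural lists had 1 each. Over all genes with a region the share was 3.48%. Whether these members stay gained with equal numbers of peaks is not given. Chromosome 8 held 165 gained regions, the most of any. The strongest lost region was that of Palm3, a membrane-linked protein gene, with 169, 275 and 270 tags in the sensitive libraries. The other lost genes were Erich6, Tbkbp1, Sstr3, Kcnk5, Rfc1, Spns2 and Tmem141.

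Mtap, Jak1 and Cachd1 lie in 1 stretch of chromosome 4 where gained regions crowded. This stretch, 89 to 103 Mb, was chosen after its values were seen. Of its 68 regions in all 3 knockdown libraries 43 (63.2%) were gained, against 8.81% of 20721 over the genome, and only 8 had a peak in all 6. The knockdown libraries had 80, 92 and 97 peaks in it and the sensitive libraries 8, 30 and 25. Res_Ctrl, with 77, 78 and 79, and Res, with 57, 49 and 48, were above Sen as well. Within it, no sensitive library had an H3K27ac peak from the first to the last of 18 regions at chr4:100400573-102630328, which holds Ror1, Cachd1, Raver2, Jak1, Ak4, Leprot, Lepr and Pde4b. This run was picked for having no sensitive H3K27ac peak. Each sensitive H3K9ac library had 4 peaks there, and the knockdown H3K9ac libraries had 7, 9 and 9. The cause was not tested.

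The window of Mtap is printed because its gained region covers the start, and that of Fabp7 because it is the targeted gene, which had no peak. They lie at chr4:89137120-89137419, plus strand, and chr10:57784673-57784972, plus strand (RefSeq, GRCm38.p6), with CCAAT on either strand in capitals. None of the other letters searched were in either.
Mtap: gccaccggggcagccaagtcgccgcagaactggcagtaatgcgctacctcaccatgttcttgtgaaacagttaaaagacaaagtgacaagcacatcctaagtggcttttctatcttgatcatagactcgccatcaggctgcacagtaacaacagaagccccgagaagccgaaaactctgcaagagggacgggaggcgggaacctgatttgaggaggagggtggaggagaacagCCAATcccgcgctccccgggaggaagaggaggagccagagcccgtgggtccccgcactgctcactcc
Fabp7: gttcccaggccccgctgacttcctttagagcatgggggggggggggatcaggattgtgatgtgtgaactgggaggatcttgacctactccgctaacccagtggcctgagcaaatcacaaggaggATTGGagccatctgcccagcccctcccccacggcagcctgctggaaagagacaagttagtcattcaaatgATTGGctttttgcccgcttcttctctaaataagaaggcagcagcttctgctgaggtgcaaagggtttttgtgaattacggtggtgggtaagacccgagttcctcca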

How the data were processed

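Chromatin immunoprecipitation for H3K27ac was sequenced in 50-base single reads, 53 to 158 M per sample per the labels, after fixation in 1% formaldehyde for 10 minutes. Bowtie 1.1.2, MACS 1.4.2 and the build mm10 are named in the submitters' processing notes, and further settings are not given in the sources used here. The authors deposited 1 peak list per library, with a count of tags per peak, not scaled. Its deposited score, the log10 of the p multiplied by -10, was at least 50 (a p of 1e-05) and was used only as a stricter limit of 100 and to rank peaks. The authors' fold of a peak over background was not used in any test. No interval was identical between replicate lists. Each library has a list of its own, and whether an input library served as the caller's control is not stated. The 4 input libraries were not used here.

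Peaks overlapping by 1 base were merged over the 6 libraries. Tags were summed per region and tested with edgeR 4.0.16 (R 4.3.3, quasi-likelihood test, TMM scaling), with 3 libraries against 3. Benjamini-Hochberg adjustment ran over all tested regions, and a gene carries the adjusted p of its region. CPM are TMM-scaled tags per 1000000 tags in tested regions. Per called base, the length called in each library entered as an offset. A common fit over 12 libraries with a mean per group gave the comparisons with Res_Ctrl and Res. Where a chromosome or 5 Mb window median was removed, it entered the fit as an offset. On simulated counts for the 13663 regions, 99% of changes of 1 and 100% of changes of 2 (log2) were called, and 0.0594% of unchanged regions. The simulated regions were independent, with a spread set by the fitted trend alone. They held no outlying library and no shift of whole chromosomes, so these shares may not hold for the real libraries.

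A gene took the tested region with the highest mean within 1 kb of either end of its RefSeq annotation (GRCm38.p6, 21887 protein-coding genes), because start sites were at hand for only 79.9%. Genes sharing a region are named together. Whether a region lies over an exon or intron is given only where it covers the start. Named genes were Fabp7, the 10 largest increases and decreases passing by tags and per called base without overlap (predicted genes passed over), up to 3 called members per list, and the 8 strongest gained and lost regions. Other genes, such as Gpx4, B2m, Cd274, Foxa2, Gata6, Rxra, Fth1, Krt7, Krt8 and the glycolytic enzymes, were named from the lists after their values were seen. A called member of the endoderm list is not reported here. The 27 lists and all members were chosen with earlier results of these data known. Of 76 named genes 56 had a RefSeq promoter window and in 45 the start lay in the region.

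Whether replicate numbers pair the libraries was checked on deviations from the group means: same-numbered libraries correlated at 0.43, 0.22 and 0.29, all above 0.1, the limit set for a pair. Knockdown replicate 3 with Sen replicate 2 and knockdown replicate 2 with Sen replicate 3 correlated as well, at 0.26 and 0.25, so these numbers do not set replicates 2 and 3 apart. The fit with the replicate block is given where it moved a count by over 1.5 times. Alternatives were other scalings (DESeq2 1.42.0 among them), filters, overlaps, gene assignments and left-out libraries.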

Additional observations from a re-analysis of the deposited data

How the results depend on the processing

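The counts of changed regions, 989 higher and 1203 lower, moved most with broad shifts and with single libraries. They were 514 and 729 with chromosome medians removed, 445 and 624 with 5 Mb window medians removed, and 655 and 798 without chromosomes 8 and 15, an alternative chosen after seeing the data. With the replicate number as a block 1537 were higher, and of the 76 named genes only Zcchc14 lost its call. Leaving out 1 library gave 340 to 1364 higher and 589 to 1829 lower, and 319 to 1306 called regions at gene ends and 610 to 1887 elsewhere. List members, 40 higher and 33 lower, were 21 higher with 1 peak in every library, 14 higher with chromosome medians removed, 14 and 17 with window medians removed, 20 lower within 1 kb of a start site (chosen after seeing the data), and 11 to 52 and 13 to 40 with 1 library left out.

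Gained and lost regions were 669 and 443 with an equal number of peaks (142 gained at gene ends and 527 elsewhere), 25 lost at a score of at least 100, and 1854 to 4080 and 43 to 366 with 1 library left out (366 to 605 gained at ends, 1488 to 3539 elsewhere). Over the 12 libraries the knockdown against Sen gave 969 regions with window medians removed, 1257 without chromosomes 8 and 15, and 1263 to 2012 with 1 library left out. Res_Ctrl against Sen gave 1023, 1676 and, per called base, 1472. With window medians removed Res gave 2810 against Sen and the knockdown 2809 against Res. The knockdown against Res_Ctrl gave 58 with window medians removed, 453 per called base, 604 with the replicate block and 26 to 387 with 1 library left out. Its distance to Sen minus that of Res_Ctrl turned to 0.000927 per called base. The medians of chromosomes 8 and 15 were 0.23 and -0.22 per called base, and that of chromosome 15 was -0.50 to -0.44 with 1 library left out.

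Genes changed sign under 3 kinds of setting. Per called base these were Acsl1 (-0.059), Acsl3 (-0.18), Egfr (0.0047), Fitm2 (-0.030), Hmgcs1 (-0.36), Klf5 (-0.061), Ppard (-0.26), Spry4 (-0.0078) and Tcf7l2 (-0.040). With chromosome and then window medians removed they were Ep300 (0.14, 0.076), Irf2 (-0.15, -0.049) and Myc (0.083, 0.16), with Atf4 (0.038) in the first and Cdk6 (0.19) in the second. With another region they were Fads2 (0.12 with 1 peak in every library, 0.065 in 12 libraries, 0.10 near a start), Gorab (-0.15 at the higher score, -0.15 near a start) and Rel (-0.75 in 12 libraries). No single library changed a sign. Of the other main values and counts 221 were counted as unchanged. For counts this meant within 1.5 times, and for chromosome medians within 1 SD. Differences in peaks, tags and distance only had to keep their sign. That of the distance to Sen between the knockdown and Res went from -0.160 to -0.041 per called base. The cause of these moves was not tested. The tags in a peak grow with the length the caller gave it, regions without a peak have no count, and the reads behind each list are not in it, so depth could not be matched.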
